A study of Caenorhabditis elegans with 4 samples.

Results

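The 6 genes described here encode translation initiation factors of C. elegans: eif-2Balpha, eif-2Bbeta, eif-2Bdelta, eif-2Bepsilon, eif-2D and eif-4A3. They were chosen by name, after each probe's gene identifier had been mapped to its current symbol in the WBcel235 annotation, from 7477 genes with a named probe. All 6 had a ratio on all 4 arrays and so belong to the 2222 genes that did. The list was drawn up with the ratios of these genes on these arrays already known, so their values are given as a description and carry no test.

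Translation of an mRNA begins when the factor eIF2, loaded with GTP and the initiator tRNA, brings that tRNA to the small ribosomal subunit. eIF2 leaves in its GDP form, and the complex eIF2B exchanges the GDP for GTP. In mammals and yeast the gamma and epsilon subunits of eIF2B form the catalytic part, which carries the exchange activity. Alpha, beta and delta form the regulatory part that senses phosphorylated eIF2. When eIF2 is phosphorylated under stress, eIF2B is held back and general translation falls. eIF2D is, in mammals, a factor that can deliver tRNA to the ribosome without GTP and takes part in ribosome recycling. eIF4A3 is a DEAD-box RNA helicase and, unlike its relative eIF4A, is known mainly as a core subunit of the exon junction complex that marks spliced mRNAs. In the adult C. elegans gonad, germ cells load oocytes with maternal mRNA and control much of its use at translation.

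RNA of dissected gonads, 250 for each sample, came from N2 wildtype worms and from worms carrying the tm1021 allele of cde-1, a gene for a terminal uridylyltransferase that acts in the germline. Mutant and wildtype were compared directly on 2-colour Agilent arrays, in young adults and in aged adults. In each stage the same pair of cDNAs was hybridised with the mutant in Cy5 and again with the mutant in Cy3. There was 1 RNA sample for each genotype and stage, so the arrays of a stage are technical repeats and n = 2 over the stages.

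Values are log2 ratios, obtained by taking the deposited numbers as log10 ratios; were they log2, every size below would be smaller by a factor of 3.32. No label states which genotype the deposited ratios are over. Within a stage the orientations correlated positively across the 2222 genes, at 0.65 in young adults and 0.44 in aged ones, and they were averaged as deposited, on the reading that the dye swap had already been turned. The sign is taken as mutant over wildtype by assumption, and axes that read likely mutant over wildtype carry the same assumption. The orientations differed in number format: on the mutant-in-Cy5 arrays every nonzero value was written in scientific notation, and 0 of the others were. This format shows neither which orientation was turned nor which genotype is the numerator. The sample titles name wildtype before the mutant for the mutant-in-Cy5 arrays and the mutant first for the others, and do not say whether that order is the order of the ratio. If the sign were the reverse, each higher value would be a lower one. If no array had been turned, the averages would hold dye effects, and that reading is given further below. Between arrays of different stages the correlations were -0.20 to -0.039. The number of RNA samples limits the precision, and in whole gonads fewer cells of a type and less RNA per cell cannot be told apart. None of the fixed marker genes of germline, sperm, intestine, muscle or somatic gonad had a named probe, so the tissue label was not checked here.

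In young adults, eif-2Bbeta, eif-2Bepsilon, eif-2Bdelta and eif-2D lay below 0 on both arrays, as did 35.8% of the 2222 genes. In aged adults, all 6 genes lay above 1 log2 unit on the mutant-in-Cy5 array. So did 28.8% of the 2222 genes, and that array had the highest median (0.37) and widest SD (1.15) of the 4. On the aged mutant-in-Cy3 array, eif-2Bdelta and eif-4A3 were high and the other 4 were near or below 0. The median of the 6 stage means was -0.83 in young and 0.81 in aged adults, against 0.025 and 0.18 over the 2222 genes. Over both stages limma called 0 of the 2222 genes higher (0%) and 0 lower (0%) by its adjusted p, at a threshold of 0.05, and 72 genes had an unadjusted p below it. With 0 of all genes called, that fit could not have called a listed gene, so it holds no result about the 6 in particular.

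**Figure D1:**
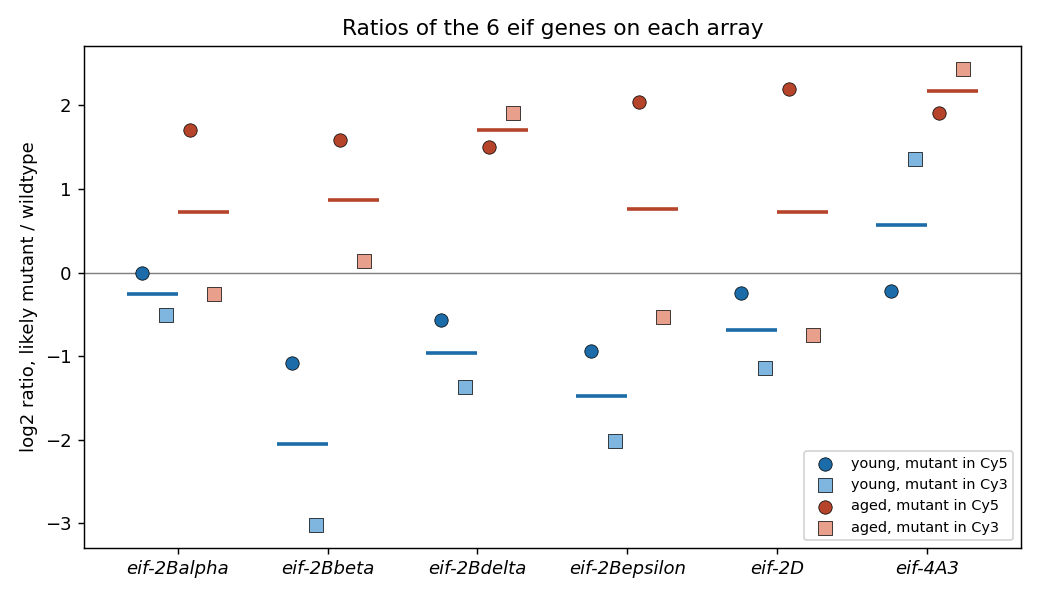
Log2 ratio (assumed to be mutant over wildtype, vertical axis) of each eif gene on the 4 arrays. Circles have the mutant in Cy5, squares have it in Cy3, and horizontal bars are the stage means of young (blue) and aged (red) adults. The young bars of 5 genes lie below 0 and all aged bars lie above it; the lowest point is eif-2Bbeta at -3.02.

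Among the regulatory subunits of eIF2B, eif-2Bbeta (Y47H9C.7, chromosome I) had the lowest young ratios. It stood at -1.08 with the mutant in Cy5 and at -3.02 with the mutant in Cy3 in young adults, and at 1.58 and 0.14 in aged adults in that order. Both young values lay below both aged values, although the arrays of each stage were themselves far apart. The young mean of -2.05 is a ratio of 0.242 and the aged mean of 0.86 a ratio of 1.82. Over both stages the mean was -0.59 ± 2.06 (SD, n = 2 stages).

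For eif-2Bdelta (F11A3.2, chromosome V), the young ratios were -0.56 and -1.36 and the aged ratios 1.498 and 1.90, with the mutant in Cy5 first here and in the sentences that follow. It was the eIF2B subunit with the closest orientations in aged adults, and the stages did not overlap. Its stage means were -0.96 and 1.70, a 3.25-fold ratio in aged adults, and the mean over both stages was 0.37 ± 1.88 (SD, n = 2 stages).

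The smallest young ratios among the subunits were those of eif-2Balpha (ZK1098.4, chromosome III), at 0.00097 and -0.50. Its aged ratios were 1.70 and -0.25, and the stages overlapped. The young mean of -0.25 and the aged mean of 0.72 gave 0.24 ± 0.69 (SD, n = 2 stages).

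The catalytic subunit gene eif-2Bepsilon (D2085.3, chromosome II) had young ratios of -0.93 and -2.01 and aged ratios of 2.04 and -0.53. Both young values lay below both aged values, but the aged orientations took opposite signs. The stage means were -1.47 and 0.76, and the mean over both stages was -0.36 ± 1.57 (SD, n = 2 stages). The other subunit of the catalytic part, gamma, had no named probe and was not analysed here.

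eif-2D (C25H3.4, chromosome II) had young ratios of -0.24 and -1.14. In aged adults it had 2.20 with the mutant in Cy5, the highest of the 6 on that array, and -0.74 with the mutant in Cy3, the lowest of the 6 on that one. Its aged mean of 0.73 is therefore the average of values 2.94 apart, and the stages overlapped. The young mean was -0.69, and the mean over both stages was 0.019 ± 1.001 (SD, n = 2 stages).

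eif-4A3 (Y65B4A.6, chromosome I) was the 1 gene of the 6 with a young mean above 0. Its young ratios were -0.22 and 1.36, of opposite sign, and its aged ratios 1.91 and 2.44. The aged mean of 2.17, a 4.51-fold ratio, was the highest of the 6 genes, and the young mean was 0.57. Both aged values lay above both young values, and the mean over both stages was 1.37 ± 1.13 (SD, n = 2 stages). Probe sequences were not used here, so hybridisation of RNA from related helicase genes was not tested.

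Ranked by young mean, the genes ran from eif-4A3 through eif-2Balpha, eif-2D, eif-2Bdelta and eif-2Bepsilon to eif-2Bbeta. Neighbours in this order were 0.27 to 0.82 apart, in each case less than the larger of their SDs between the young arrays. Ranked by aged mean, eif-4A3 was followed by eif-2Bdelta, 0.47 lower, a gap above the larger of their SDs between arrays (0.37). eif-2Bbeta came 0.84 below eif-2Bdelta, within an SD of 1.02, and eif-2Bbeta, eif-2Bepsilon, eif-2D and eif-2Balpha lay within 0.11 of the next gene, with SDs of up to 2.08. Ranked over both stages, no neighbours were farther apart than the larger of their SDs between stages.

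Set among all named genes with a ratio on the same array, the 6 genes were spread in young adults and close together on the array of aged adults with the mutant in Cy5. On that array they ranged from 1.498 for eif-2Bdelta to 2.20 for eif-2D and fell between the 87.4 and 96.0 percentiles of 3718 genes. Above 1 log2 unit there were 6 of the 6, where 28.8% of the 2222 genes were; this array had the highest median (0.37) and the widest SD (1.15) of the 4. On the other aged array they ranged from -0.74 to 2.44, from the 16.6 percentile for eif-2D to the 99.3 percentile for eif-4A3, with eif-2Bdelta at the 98.3 percentile. Above 1 log2 unit there were 2 of the 6, where 10.8% of all genes were.

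On the young array with the mutant in Cy3, eif-2Bbeta lay at the 0.434 percentile of 3113 genes and eif-2Bepsilon at the 1.94 percentile. eif-2Bdelta followed at the 5.75 and eif-2D at the 8.99 percentile, and these 4 genes were below -1 log2 unit, where 13.9% of all genes were. eif-4A3 stood at the 90.9 percentile of the same array. On the young array with the mutant in Cy5, where 8.01% of all genes were below -1, only eif-2Bbeta was, and the 6 genes ran from its 6.65 percentile to the 42.1 percentile of eif-2Balpha.

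**Figure D2:**
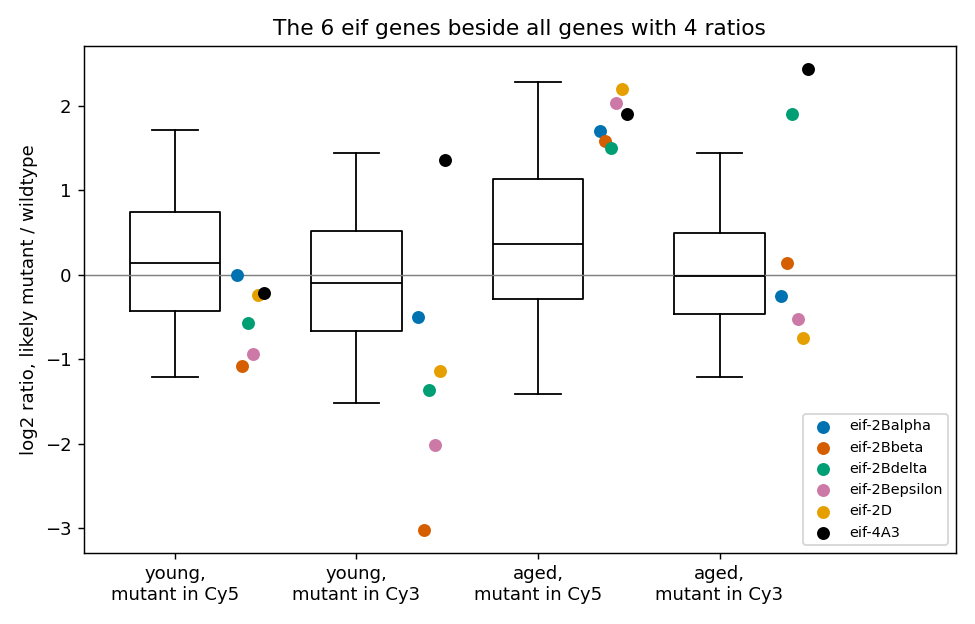
Log2 ratios (assumed to be mutant over wildtype) on each array. Boxes give the median and quartiles, and whiskers the 5th and 95th percentiles, of the 2222 genes with 4 ratios; coloured points are the 6 eif genes. On the aged mutant-in-Cy5 array the 6 points lie together between 1.498 and 2.20, above the box, and on the other aged array eif-2Bdelta and eif-4A3 lie apart from the other 4.

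Signs were counted over both arrays of a stage. In young adults 4 of the 6 genes were below 0 on both arrays (35.8% of all genes) and 0 were above 0 on both (37.4%), the arrays of eif-2Balpha and eif-4A3 being of opposite sign (26.8%). In aged adults eif-2Bbeta, eif-2Bdelta and eif-4A3 were above 0 on both arrays (39.1% of all genes) and 0 were below 0 on both (25.3%). The other 3 had aged arrays of opposite sign, as did 35.6% of all genes. Both young arrays were below -1 for eif-2Bbeta alone among the 6 (5.04% of all genes), and both aged arrays were above 1 for eif-2Bdelta and eif-4A3 (7.07%).

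The second question was how the genes compared between the stages, which the study's design treats as near duplicates. The young mean was below 0 and the aged mean above 0 for 5 of the 6 genes, and for 34.5% of all genes. Young minus aged differences were -2.91 for eif-2Bbeta, -2.66 for eif-2Bdelta, -2.23 for eif-2Bepsilon, -1.60 for eif-4A3, -1.42 for eif-2D and -0.98 for eif-2Balpha. All 6 were thus higher in aged than in young adults by the stage means. The share of all genes in this order was not counted, but it was common among them, since their median difference was also below 0. The median difference was -1.92 for the 6 and -0.094 over all genes. These differences have no replicate check and no test, with 1 RNA sample for each genotype and stage.

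On single arrays the stage pattern was narrower. The young values lay below the aged values without overlap for eif-2Bbeta, eif-2Bdelta, eif-2Bepsilon and eif-4A3, as for 33.1% of all genes; counted in either direction, values of the stages did not overlap for 60.8% of all genes and for the same 4 of the 6. Both young arrays were below 0 and both aged arrays above 0 for eif-2Bbeta and eif-2Bdelta, 2 of the 6, as for 19.1% of all genes, and the opposite order was found for 0 of the 6 and for 13.7% of all genes. The sign of the aged median rested on the aged mutant-in-Cy5 array: without it the median of the 6 was -0.055, and without the other aged array it was 1.81. Without that other aged array, 4 genes in place of 2 had opposed stages, since eif-2Bepsilon and eif-2D then joined.

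**Figure D3:**
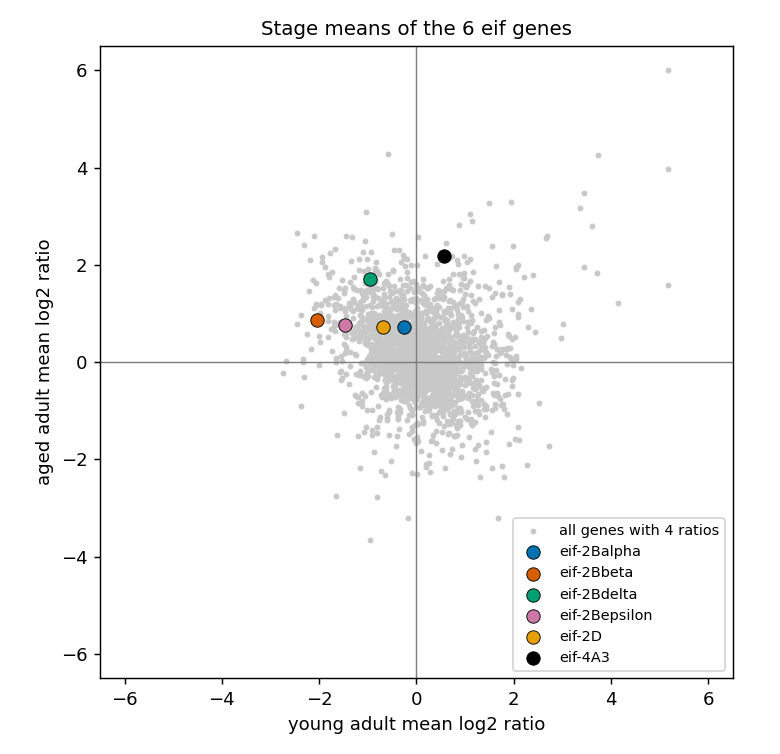
Mean log2 ratio in young (horizontal) and aged adults (vertical), assumed to be mutant over wildtype. Grey points are the 2222 genes with 4 ratios and coloured points the 6 eif genes. The 4 eIF2B genes and eif-2D lie in the upper left, with young means of -0.25 to -2.05, and eif-4A3 lies to the right of 0 at an aged mean of 2.17.

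Centring each array on its median over the 2222 genes lowered every aged stage mean by the same amount, about 0.18, close to the aged median of all genes. After it the aged means of the 6 genes ran from 0.55 for eif-2Balpha and eif-2D to 1.997 for eif-4A3, and the young means from -2.07 for eif-2Bbeta to 0.55 for eif-4A3. eif-2Balpha then lay at -0.13 on the young array with the mutant in Cy5, so that 5 of the 6 genes were below 0 on both young arrays. The signs of all 12 stage means stayed as they were. Over both stages the mean of eif-2D turned from 0.019 to -0.079.

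The difference between dye orientations within a stage estimates 2 times the genotype log ratio if no array was turned before deposit. Otherwise it holds dye effects and other differences between the arrays of a stage, which cannot be told apart here. The ratio with the mutant in Cy5 exceeded that with the mutant in Cy3 in both stages for eif-2Balpha, eif-2Bbeta, eif-2Bepsilon and eif-2D, 4 of the 6, as for 47.6% of all genes. For eif-4A3 it was lower in both stages, as for 16.9% of all genes. eif-2D had differences of 0.90 in young and 2.94 in aged adults, and eif-2Bepsilon had 1.08 and 2.57. eif-2Bbeta had 1.94 and 1.44, and eif-2Balpha 0.50 and 1.95. eif-4A3 had -1.58 and -0.53. At 0.80 in young and -0.41 in aged adults, eif-2Bdelta was the only gene of the 6 whose sign differed between stages. The medians over all genes were 0.20 in young and 0.36 in aged adults, and the differences of the stages correlated at 0.25 across all 2222 genes.

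Had no array been turned, the ratios of mutant to wildtype over both stages would be, at 0.5 of the mean difference, 0.96 for eif-2D, 0.91 for eif-2Bepsilon, 0.85 for eif-2Bbeta, 0.61 for eif-2Balpha, 0.098 for eif-2Bdelta and -0.53 for eif-4A3, on the log2 scale. The stage means would then be 0.97 in young and 0.72 in aged adults for eif-2Bbeta, and 0.54 and 1.28 for eif-2Bepsilon. For eif-2D they would be 0.45 and 1.47, and for eif-4A3 -0.79 and -0.26. In this reading the young median of the 6 genes was 0.42 and no gene had opposed stages on all arrays. limma called 0 of the 2222 genes in this reading also, with 291 at an unadjusted p under 0.05.

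**Figure D4:**
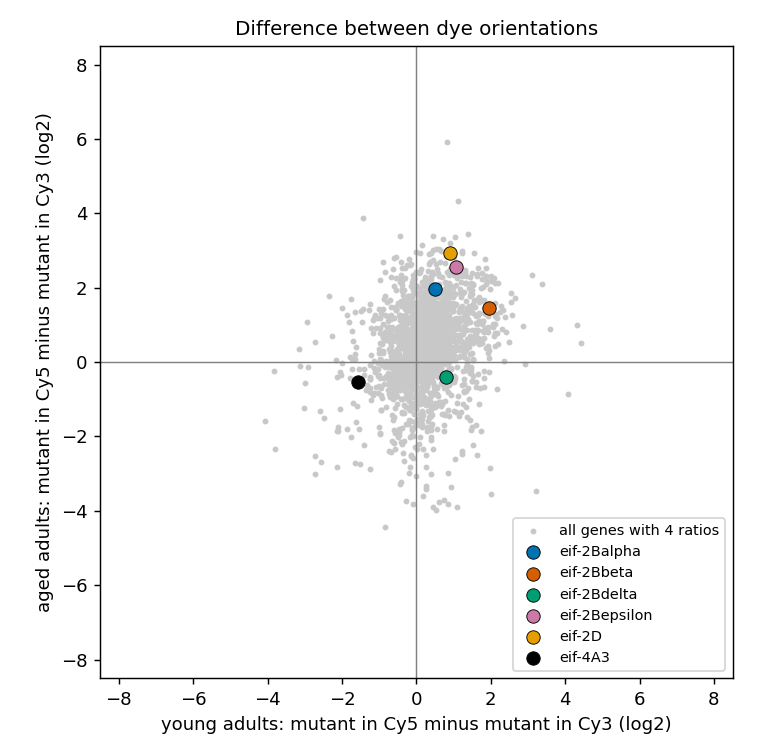
Difference in log2 ratio between the array with the mutant in Cy5 and that with the mutant in Cy3, in young (horizontal) and aged adults (vertical). Grey points are the 2222 genes with 4 ratios and coloured points the 6 eif genes. eif-2Balpha, eif-2Bbeta, eif-2Bepsilon and eif-2D lie above 0 in both stages, eif-4A3 below 0 in both, and eif-2Bdelta between them at 0.80 in young and -0.41 in aged.

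Likeness between genes was measured as the Euclidean distance over the 4 log2 ratios, which the genes share with their arrays and RNA samples. Among the 6 genes the closest pair was eif-2Balpha and eif-2D, at 0.98, where eif-2Balpha ranked 20 of 2221 genes by nearness to eif-2D and eif-2D ranked 141 by nearness to eif-2Balpha. eif-2Bepsilon and eif-2D were 1.15 apart, and eif-2Bbeta and eif-2Bepsilon 1.30, each gene of the latter pair being among the 44 nearest of the other. eif-2Bdelta lay 2.40 to 2.82 from each of the other 5, beside a median of 3.001 from it to all genes. eif-4A3 lay farthest from eif-2Bbeta, at 5.03, and nearest to eif-2Bdelta, at 2.82.

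The gene closest to eif-2Balpha was wshc-2, at a distance of 0.24, followed by T20B12.7 at 0.31. eif-2Bbeta was closest to Y58A7A.3 (0.53) and pigu-1 (0.78). For eif-2Bdelta the nearest were B0205.9 (0.51) and pgap-3 (0.56), and for eif-2Bepsilon F54H12.2 (0.52) and Y69A2AR.16 (0.59). eif-2D was closest to C50C3.1 (0.36) and K09D9.1 (0.50). eif-4A3 had no gene so near, with F08D12.2 at 1.19 and C27D8.3 at 1.26.

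The mean profile of the 4 measured eIF2B subunits was -0.64 and -1.72 in young and 1.71 and 0.32 in aged adults. The gene nearest to it, the eIF2B genes and the other listed genes left out, was wac-1.2 at a distance of 0.20. Its ratios were -0.51 and -1.78 in young and 1.56 and 0.31 in aged adults. F48C1.6 (0.29), R07E4.5 (0.32), B0507.2 (0.36) and B0464.9 (0.37) followed. These 5 genes lie on chromosomes I, III, V and X.

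Other genes of translation were looked for in lists drawn up with earlier results of these data known. Of 44 other initiation factor genes, 11 regulators of eIF2, 18 genes of the exon junction complex and nonsense-mediated decay, and 4 recycling factors related to eIF2D, 0 had a named probe. No tRNA synthetase or cytoplasmic ribosomal protein gene had a named probe either. As 14844 of the 22562 probes had no name here, genes of these lists may still lie on the array. Of 21 elongation, release and rescue factor genes, hbs-1 and pelo-1 had a named probe. In other eukaryotes the products of these genes form a complex that rescues stalled ribosomes.

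hbs-1 had ratios of -0.41 and -0.76 in young and of 1.59 and 0.41 in aged adults, below 0 on both young arrays and above 0 on both aged ones. pelo-1 had smaller ratios, at -0.15 and -0.29 in young and at 0.66 and -0.12 in aged adults. Their stage means were -0.58 and 1.002 for hbs-1 and -0.22 and 0.27 for pelo-1. Of the 4 arrays, the aged mutant-in-Cy5 array held the highest value of each, as it did for the eIF2B genes other than eif-2Bdelta.

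The mitochondrial ribosomal protein genes with a named probe were mrps-18.C, mrpl-58 and mrps-27, all with 4 ratios. mrps-18.C had 0.53 and 0.40 in young and -0.70 and -0.44 in aged adults, the opposite order of stages to that of the eIF2B genes. mrpl-58 had 0.16 and 0.061 in young and -0.49 and -0.17 in aged adults. mrps-27 stayed between -0.21 and 0.12 on all 4 arrays. The median of the 3 was 0.11 in young and -0.33 in aged adults, and 0 of them passed limma's adjusted threshold over both stages, as for 0% of all genes.

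The 6 genes lie on chromosomes I, II, III and V, and no pair of them are direct neighbours among protein-coding genes. Of their 12 direct neighbours, 3 had a ratio on all 4 arrays, and these are named for their position, after their values were seen. Y47H9C.8, beside eif-2Bbeta, had 0.88 and 0.45 in young and -0.56 and -0.32 in aged adults, opposite in sign to eif-2Bbeta on each array. Y65B4A.4, beside eif-4A3, had -0.67 and -0.39 in young and 1.53 and 0.044 in aged adults, the same sign as eif-4A3 except on the young array with the mutant in Cy3. C50F4.8, beside eif-2Bdelta, had 2.11 and 0.024 in young and 2.17 and -0.079 in aged adults.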

How the data were processed

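Gonad RNA of cde-1 (tm1021) mutant and wildtype worms was compared on 4 arrays of 2 colours. The deposited table held 1 value for each of 22562 probes and each array, taken as a log10 ratio, the convention of Agilent Feature Extraction, which the submitters' processing notes name. Its version, background correction and dye normalization were not given in the sources used here. Values were multiplied by 3.32 to give log2 ratios. An exact 0, 43.7% to 52.2% of a column, was taken as a missing ratio. Each deposited column had a median of 0. A gene symbol was given for 7718 probes, none of them with several, and 14844 had no name here; 7691 matched the WBcel235 reference by gene identifier. Probes of 1 gene were averaged; each eif gene had 1 probe. The 2 orientations of a stage were averaged. The stage means of 2222 genes were tested against 0 with limma 3.58.1 (R 4.3.3) and Benjamini-Hochberg adjustment. The fit was also run on simulated data with large changes, equal in both stages. That run does not bear on smaller changes or on stages that differ. With 1 RNA sample for each genotype and stage, p-values measure the spread between 2 stages. The members and lists were chosen with earlier results of these data known. Named were the 6 genes, every measured other initiation factor, the highest and lowest member of each other list (mrps-27 is named beyond this, to complete its list of 3), and the nearest genes by distance: 2 for each gene and 5 for the eIF2B mean. Alternatives were centring, quantile normalization, zeros kept, arrays with the mutant in Cy3 turned, each array left out, probe level, stage as a random block, small ratios left out and, chosen after seeing the data, a log2 scale.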

Additional observations from a re-analysis of the deposited data

Results flagged for a closer look

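Among the genes named above, those listed here had stages of opposed sign on all 4 arrays, and none of these differences was tested. Below 0 on both young and above 0 on both aged arrays were eif-2Bbeta, eif-2Bdelta and hbs-1, with young minus aged log2 ratios of -2.91, -2.66 and -1.59. The opposite order was found for mrps-18.C (1.04) and mrpl-58 (0.44). Of the genes chosen for their likeness to eIF2B genes, so that a shared order of stages is not independent of the choice, the difference was -3.14 for Y58A7A.3, -2.69 for B0205.9, -2.55 for pigu-1, -2.53 for B0464.9 and -2.49 for pgap-3. It was -2.19 for R07E4.5, -2.08 for wac-1.2, -1.98 for F48C1.6 and -1.93 for B0507.2. Of the chromosomal neighbours, Y65B4A.4 had -1.32 and Y47H9C.8 had 1.10. Young values below 0 with aged values above it were found for 19.1% of the 2222 genes, and the opposite for 13.7%.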

How the results depend on the processing

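The count of calls by limma moved most. Higher genes numbered 13 after centring, 14 after quantile normalization, 3 with stage as a random block and 1 when genes with mean absolute ratios under 0.2 were left out, and 9 to 16 leaving out 1 array. Lower genes numbered 1 after centring and 0 to 4 leaving out 1 array, with the remaining array of that stage taken to vary as the stage averages do. Zeros kept, probe level, swapped arrays turned and a log2 scale gave 0 calls, with lowest adjusted p of 0.486, 0.0908, 0.379 and 0.152 by limma. After centring and after quantile normalization limma pooled the variance of all genes into a common value. It did the same without either young array or without the aged mutant-in-Cy3 array. Without the aged mutant-in-Cy5 array the pooling was nearly complete, while in the main fit it was partial. The larger counts of calls therefore rest on a shared variance. With swapped arrays turned, the young median of the 6 genes moved from -0.83 to 0.42, the number below 0 on both young arrays from 4 to 1, and the number with opposed stages from 2 to 0. Leaving out 1 array, the young median ran from -1.25 to -0.40, the aged median from -0.055 to 1.81, the number above 0 on the aged arrays from 3 to 6, and the number with opposed stages from 2 to 4. Of 54 values of single genes over both stages, 45 kept their sign. That count includes the zeros-kept and log2-scale settings, which could not change the sign of a gene with all 4 ratios. The value of eif-4A3 with swapped arrays turned, at -0.53, moved by more than its SD between stages. Beyond the pairing within each array, no paired analysis was possible because no label numbers the samples as replicates. Both genotypes share each array, so every ratio already compares mutant and wildtype as a pair. Spot brightness was not analysed here, so low signals could not be set apart.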
